A study of Mus musculus with 4 samples.

Results

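Among T cells sorted from the pancreatic islets of NOD mice, some cell barcodes held more than 1 productive T cell receptor beta chain (TRB), and these barcodes are described here. A barcode stands for 1 droplet and usually for 1 cell. The members are the barcodes whose filtered receptor contigs held 2 or more productive TRB. They numbered 203 of 1590 barcodes with a TRB at 8 weeks of age, 12.8% (95% Clopper-Pearson interval 11.2% to 14.5%), and 235 of 1661 at 16 weeks, 14.1% (12.5% to 15.9%). Together they were 438 of the 3478 barcodes of both receptor libraries. They were set against the 1387 and 1426 barcodes with exactly 1 productive TRB. The members were thus chosen by the measured number of productive TRB contigs, and that number and the counts that follow from it are given as a description.

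The study profiled islet T cells of pre-diabetic NOD females, an inbred line prone to spontaneous autoimmune diabetes. Cells that bound an antibody to the T cell receptor beta chain (clone H57-597) and excluded DAPI, a stain of dead cells, were sorted at 8 weeks and at 16 weeks. Droplet-based 5' chemistry then gave, at each age, 1 library of messenger RNA and 1 of receptor transcripts, which makes 4. The labels do not say how many mice were pooled. No genotype other than the strain and no treatment is named for either age. Neither age has a replicate library of either kind, so no test between ages or groups of barcodes was possible. Every interval here covers counting error only, and each comparison was made within 1 library.

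An alpha-beta T cell assembles its receptor from V, D and J segments of the beta locus and from V and J segments of the alpha locus. A diploid cell has a copy of the beta locus on each homologous chromosome. A productive rearrangement on one of them normally halts rearrangement of the other, which is called allelic exclusion, and most T cells therefore show a single productive beta chain. The alpha locus is excluded less strictly, and T cells with a pair of productive alpha chains (TRA) are common. In droplet data a barcode can show several chains where 1 cell made them, where more than 1 cell entered a droplet, or where free RNA from other cells was captured.

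The pair of beta chains found in a member was nearly always found in that barcode alone. A pair was taken as the same where V gene, J gene and CDR3 nucleotides of both chains were the same. CDR3 is the stretch across the V-D-J junction and differs from one rearrangement to the next. At 8 weeks 318 different pairs were present in the members, since a barcode with 3 chains holds 3 pairs, and 2 of them recurred, in 8 barcodes in all (3.94% of members). At 16 weeks 1 of 373 pairs recurred, in 2 barcodes (0.851%). Matching on CDR3 nucleotides alone or on its translation gave the same counts.

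The CDR3 nucleotides of the 3 recurrent pairs are shown because each chain joins a particular junction to a partner in more than 1 barcode. Sequences run 5′ to 3′ from the deposited contigs. Lower case marks bases that match the named V segment from the start or the named J segment from the end, up to the first mismatch. The segments are those of GENCODE M21 (mouse build mm10). Capitals mark the bases between, where added bases and, in beta chains, the D segment lie. They can also hold bases that match a segment beyond a mismatch.
Pair 1, 8 weeks, TRBV20 with TRBJ2-7: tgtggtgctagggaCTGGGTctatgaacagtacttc
Pair 1, 8 weeks, TRBV3 with TRBJ2-1: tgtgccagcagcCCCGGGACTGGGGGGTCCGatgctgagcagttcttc
Pair 2, 8 weeks, TRBV20 with TRBJ2-5: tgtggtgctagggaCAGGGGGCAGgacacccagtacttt
Pair 2, 8 weeks, TRBV29 with TRBJ1-2: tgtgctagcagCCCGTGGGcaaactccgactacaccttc
Pair 3, 16 weeks, TRBV14 with TRBJ2-7: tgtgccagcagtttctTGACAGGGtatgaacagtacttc
Pair 3, 16 weeks, TRBV20 with TRBJ1-2: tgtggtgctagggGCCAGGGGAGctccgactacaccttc
The junctions held 6 to 19 capital bases. NOD mice may differ from the reference strain, so a capital base can also be a strain difference. All 3 pairs joined a TRBV20 chain to a chain of another V gene. At 8 weeks TRBV20 made up 6.55% (interval 4.46% to 9.22%) of the members' TRB contigs and 4.90% (3.83% to 6.17%) of the sole chains. At 16 weeks it made up 6.59% (4.63% to 9.05%) and 4.21% (3.23% to 5.38%), and the intervals overlapped at both ages. The members' contigs include the recurrent pairs themselves, which at 8 weeks gave 5 and 3 of the 30 TRBV20 contigs. None of the 6 chains was found in any other barcode, with or without its partner.

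The segments of these chains lie on mouse chromosome 6 in mm10. Trbv3 spans chr6:41048290-41048828, Trbv14 chr6:41135145-41135616, Trbv20 chr6:41188273-41188977 and Trbv29 chr6:41271394-41271881. Trbj1-2 spans chr6:41534001-41534048 in the first J cluster, and Trbj2-1, Trbj2-5 and Trbj2-7 begin at 41542754, 41543453 and 41543810 in the second. The constant genes Trbc1 (chr6:41538218-41539881) and Trbc2 (chr6:41546730-41548352) follow the clusters. Cd8b1 (chr6:71322788-71337494), Cd8a (chr6:71373427-71379173) and Cd4 (chr6:124864692-124888221), used below, lie on the same chromosome, and Foxp3 is at chrX:7573644-7595245.

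Pair 1 was found in 5 barcodes at 8 weeks. Its TRBV20 chain had 7, 15, 8, 12 and 11 UMIs (molecular tags, each standing for 1 captured transcript) and its TRBV3 chain 11, 58, 8, 38 and 21. The TRBV3 chain was the more abundant in 4 of the 5 and equal in the other. A TRA of TRAV12D-3 with TRAJ23 was present in 3 of the 5, at 2 UMIs in each:
Pair 1, TRAV12D-3 with TRAJ23: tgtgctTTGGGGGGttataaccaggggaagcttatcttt
Other TRA, of TRAV4-3 and TRAV6-7-DV9, were each found in 1 barcode of the pair, at 6 and 11 UMIs. The TRAV6-7-DV9 chain was also found in 1 barcode outside the pair. The barcode of 4142 RNA UMIs held no TRA. The 5 barcodes held 2, 2, 2, 3 and 4 productive TRB, so 2 of them carried chains beyond the pair. All 5 had UMIs of both genes of the CD8 coreceptor, with 1, 10, 2, 19 and 23 of Cd8a and 2, 7, 1, 5 and 7 of Cd8b1. Cd4 was at 0 in 3 and at 1 UMI in 2 of them, and Foxp3, the transcription factor of regulatory T cells, was at 0 in all 5. Their RNA totals were 4142, 16420, 2444, 21972 and 15039 UMIs. The lowest of these exceeded 32.6% of the 1-TRB barcodes of the library and the highest 98.9%, so the pair was seen in shallow and in deep barcodes.

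Pair 2 was found in 3 barcodes at 8 weeks, with 5, 6 and 8 UMIs of its TRBV20 chain and 12, 5 and 20 of its TRBV29 chain. All 3 shared 1 TRA, at 8, 4 and 2 UMIs:
Pair 2, TRAV7D-5 with TRAJ23: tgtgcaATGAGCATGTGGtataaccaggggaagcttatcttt
Cd8a and Cd8b1 were at 0 in all 3 barcodes, Cd4 was at 0, 0 and 1 UMI and Foxp3 at 1, 3 and 2 UMIs. The RNA totals were 5332, 2934 and 14413 UMIs, above 79.9%, 49.5% and 96.8% of the 1-TRB barcodes. The barcode of 2934 UMIs held 2 TRB and 1 TRA, and the others held 3 TRB each with 3 and 5 TRA.

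Pair 3 was found in 2 barcodes at 16 weeks, with 16 and 6 UMIs of its TRBV14 chain and 4 and 7 of its TRBV20 chain. Both shared 1 TRA, at 4 and 11 UMIs, whose junction had no base outside its V and J segments:
Pair 3, TRAV3-1 with TRAJ27: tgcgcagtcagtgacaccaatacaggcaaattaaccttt
Cd4 had 4 and 3 UMIs, Cd8a and Cd8b1 had none, and Foxp3 had 5 and 0 UMIs. The RNA totals of 12273 and 8973 UMIs lay above 97.3% and 95.3% of the 1-TRB barcodes. Of the 10 barcodes of the 3 pairs, Cd4 and Cd8 UMIs were found together only in 2 barcodes of pair 1, each with a single Cd4 UMI. The alpha segments lie on chromosome 14, with Trav3-1 at chr14:52580665-52581213, Trav7d-5 at chr14:52835858-52836387 and Trav12d-3 at chr14:52929789-52930282.

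Apart from those of pair 1, chains that were common in the libraries and lay in 2 or more members did not keep 1 partner. Chains present in 5 or more barcodes numbered 21 at 8 weeks and 12 at 16 weeks. Of the barcodes with such a chain, 32 of 136 (23.5%, interval 16.7% to 31.6%) and 32 of 74 (43.2%, 31.8% to 55.3%) were members. The 8-week count includes the 5 barcodes of pair 1, all of them members. Members were 12.8% and 14.1% of all barcodes with a TRB and held 24.8% and 27.1% of all productive TRB contigs. A barcode with more chains has more chances to hold a widespread one. At 8 weeks a second TRB seen more than once was found for 2 of the 21 chains, which are the chains of pair 1, and at 16 weeks for none of the 12. Only a chain in 2 or more members could show this, and some of the chains at each age lay in fewer. The chains that follow are the most widespread at each age and are shown as the contrast to the recurrent pairs.
8 weeks, TRBV13-2 with TRBJ2-7: tgtgccagcggGGGAtatgaacagtacttc
16 weeks, TRBV13-2 with TRBJ2-4: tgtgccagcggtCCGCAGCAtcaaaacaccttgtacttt
16 weeks, TRBV19 with TRBJ2-7: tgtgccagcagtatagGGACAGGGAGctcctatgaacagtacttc
The 8-week TRBV13-2 chain, with 4 capital bases, was present in 18 barcodes. It was the sole TRB in 12 of them, and the other 6 held 11 different further TRB, each seen once. The 16-week TRBV13-2 chain was present in 10 barcodes, 3 of them members with 5 different further TRB. The TRBV19 chain was present in 10 barcodes, 5 of them members with 8 different further TRB. Trbv13-2 spans chr6:41121396-41121832 and Trbv19 chr6:41178375-41179048.

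Most members held exactly 2 productive TRB, 165 at 8 weeks and 187 at 16 weeks. The remaining 38 and 48 members held 3 or more, which is beyond the beta alleles of a diploid cell. They were 18.7% (interval 13.6% to 24.8%) and 20.4% (15.5% to 26.2%) of members, and 2.39% (1.70% to 3.27%) and 2.89% (2.14% to 3.81%) of all barcodes with a TRB. Exactly 3 TRB were found in 27 and 38 barcodes, 4 in 8 and 8, 5 in 3 and 1, and 6 in 0 and 1. Members held 458 of the 1845 productive TRB contigs of the 8-week library (24.8%) and 531 of 1957 of the 16-week library (27.1%).

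The chains of a member were unequal in UMIs, and none fell under a ratio of 0.2. The less abundant of the top pair of TRB had 2 to 25 UMIs with a median of 5 at 8 weeks, and 2 to 23 with a median of 4 at 16 weeks. The more abundant had 2 to 58 with a median of 10, and 2 to 77 with a median of 9. The sole TRB of 1-TRB barcodes had medians of 7 and 6. The ratio of the less to the more abundant chain had quartiles of 0.333, 0.5 and 0.667 at 8 weeks and of 0.333, 0.5 and 0.714 at 16 weeks, and 4 and 6 members sat exactly at the lowest ratio of 0.2. A less abundant chain of 1 UMI occurred in no member, whereas 59 (4.25%) and 101 (7.08%) of the 1-TRB barcodes rested on a chain of 1 UMI. In reads the lowest ratio was 0.0988 and 0.0538. The sharp lower edges in UMIs are properties of the deposited table, and the sources used here name no step that made them. Members with a less abundant TRB of 2 UMIs, nearest to the threshold, numbered 38 (18.7%) and 61 (26.0%), and equal UMIs of both chains were found in 10 (4.93%) and 20 (8.51%).

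**Figure D1:**
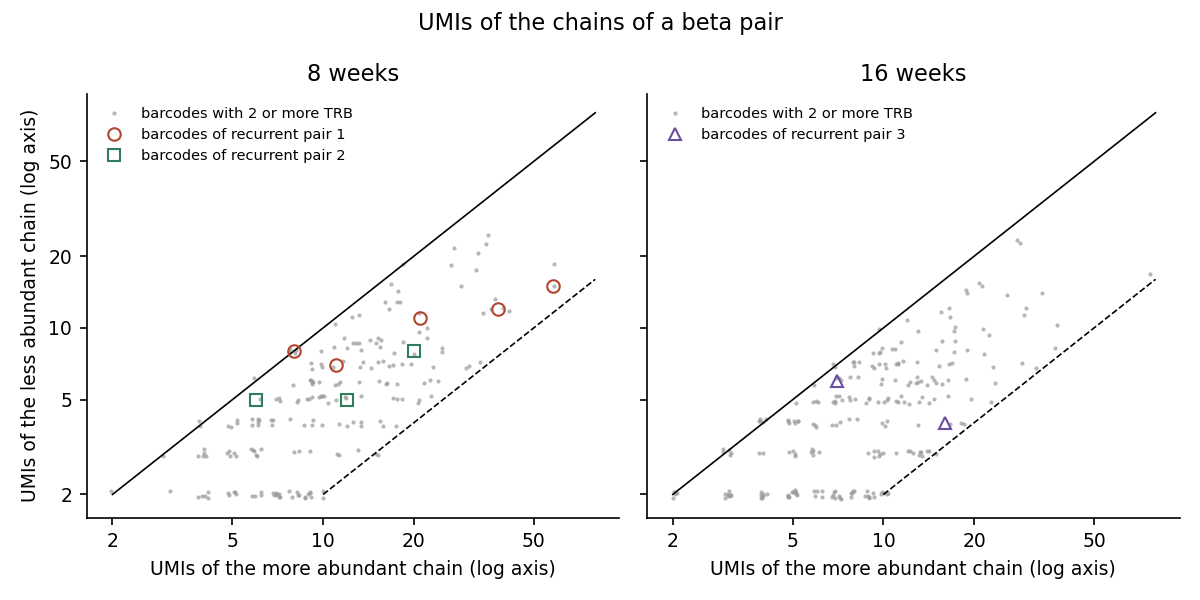
UMIs of the less abundant (vertical, log axis) against the more abundant (horizontal, log axis) chain of each barcode with 2 or more TRB, at 8 weeks (left) and 16 weeks (right), with grey points spread slightly to separate ties. The solid line is equality and the dashed line a ratio of 0.2, below which no barcode lies; open symbols are the 5, 3 and 2 barcodes of the recurrent pairs, plotted by the chains of that pair.

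Chains of a member almost never used the same V gene. The 2 most abundant TRB shared a V gene in 0 of 203 members at 8 weeks, which allows a share of up to 1.48% (3 counts of the total), and in 1 of 235 (0.426%) at 16 weeks. Over all pairs of 1-TRB barcodes of a library the share with 1 V gene in common was 7.69% and 7.92%. The alpha chains showed the same, with a shared V gene in 0 of 229 and 0 of 205 barcodes with 2 or more TRA (shares of up to 1.31% and 1.46% by the same limit) against 3.06% and 3.19% over all pairs of barcodes with 1 TRA. J genes did not show it. The TRB of a member shared a J gene in 23 of 203 (11.3%, interval 7.32% to 16.5%) and 30 of 235 (12.8%, 8.78% to 17.7%), against 11.6% and 11.0% over all pairs, and a J cluster in 54.2% and 62.6% against 57.0% and 55.4%. How the contigs of a barcode were filtered is not given in the sources used here.

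A nonproductive or unresolved TRB contig accompanied the productive ones in 130 of 203 members (64.0%, interval 57.0% to 70.6%) and 151 of 235 (64.3%, 57.8% to 70.4%). In 1-TRB barcodes this share was 48.1% (45.4% to 50.8%) and 48.4% (45.8% to 51.0%). Members thus showed a nonproductive or unresolved TRB contig more often, while their greater number of productive TRB was fixed by the rule.

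Members also held more alpha chains, which the rule did not use. At 8 weeks 96 of 203 members had 2 or more productive TRA (47.3%, interval 40.3% to 54.4%), against 127 of 1387 1-TRB barcodes (9.16%, 7.69% to 10.8%). At 16 weeks 93 of 235 members did (39.6%, 33.3% to 46.1%), against 107 of 1426 (7.50%, 6.19% to 9.0%). The intervals of the 2 groups did not overlap at either age. Members with 3 or more TRA were 14.8% (10.2% to 20.4%) and 14.0% (9.87% to 19.2%), against 0.649% (0.297% to 1.23%) and 0.351% (0.114% to 0.816%) of 1-TRB barcodes. No TRA at all was found in 2.96% (1.09% to 6.32%) and 7.23% (4.27% to 11.3%) of members, and in 15.7% (13.8% to 17.7%) and 16.7% (14.8% to 18.7%) of 1-TRB barcodes.

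The number of TRA was higher with more TRB. Barcodes with exactly 2 TRB had 2 or more TRA in 42.4% (interval 34.8% to 50.3%) and 34.2% (27.5% to 41.5%), and those with 3 or more TRB in 68.4% (51.3% to 82.5%) and 60.4% (45.3% to 74.2%). For scale, and not as a test, 73.9% and 71.9% of all pairs of 1-TRB barcodes held 2 or more TRA between them, and 14.8% and 12.1% held 3 or more. The members' shares lay between those of single 1-TRB barcodes and of such pairs for 2 or more TRA, and near those of the pairs for 3 or more. The members' summed TRA had medians of 7 and 6 UMIs, against 4 and 3 in 1-TRB barcodes.

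Beta chains of members were also found in other barcodes, there as the sole TRB. The more abundant TRB of a member was the sole TRB of another barcode of the library in 40 of 203 (19.7%, interval 14.5% to 25.9%) and 37 of 235 (15.7%, 11.3% to 21%). The less abundant one was so in 26 (12.8%, 8.54% to 18.2%) and 31 (13.2%, 9.14% to 18.2%). Counting any other barcode of the library, as its sole TRB or not, the more abundant chain was found again in 25.1% (19.3% to 31.7%) and 19.6% (14.7% to 25.2%) of members and the less abundant in 17.7% (12.7% to 23.7%) and 16.6% (12.1% to 22.0%). By the same count the chain of a 1-TRB barcode was found again in 17.6% (15.6% to 19.7%) and 10.7% (9.10% to 12.4%). Where both sides had a TRA, a TRA was shared with the barcode of the same sole TRB in 29 of 38 (76.3%, 59.8% to 88.6%) and 24 of 33 members (72.7%, 54.5% to 86.7%) for the more abundant chain. For the less abundant chain it was shared in 15 of 23 (65.2%, 42.7% to 83.6%) and 16 of 26 (61.5%, 40.6% to 79.8%). Between 1-TRB barcodes with the same TRB a TRA was shared in 92.2% (87.4% to 95.6%) and 79.2% (69.7% to 86.8%).

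In 4 members at 8 weeks and 9 at 16 weeks, both chains occurred separately as the sole TRB of other barcodes. With TRA known on all sides, 3 of 4 and 3 of 8 of them carried a TRA of both of those clones. Chains that a member shared with the library of the other age numbered 1 and 7 for the more abundant TRB and 1 and 2 for the less abundant. Between the ages 5 barcode sequences recurred in the RNA libraries and 3 in the receptor libraries, none of them a member.

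The RNA libraries held 8659371 UMIs in 2043 barcodes at 8 weeks and 8183747 in 2107 at 16 weeks. After barcodes with fewer than 500 genes or over 10% mitochondrial UMIs were left out, 202 and 235 members and 1379 and 1409 1-TRB barcodes remained. The genes Cd3d, Cd3e and Cd3g, which encode the invariant CD3 chains of every T cell receptor, differed between the groups by log2 ratios of 0.04 to 0.12, and at least 3 UMIs of the receptor complex list were found in every member and in all but 1 of the 1-TRB barcodes. Trac, Trbc1, Trbc2 and the other receptor constant genes are not among the genes analysed here.

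Members held over 2 times the RNA of 1-TRB barcodes. Their median was 7592 UMIs at 8 weeks (quartiles 4881 and 12101) and 6586 at 16 weeks (4373 and 9888). The 1-TRB barcodes had medians of 2975 (2269 and 4532) and 2920 (2374 and 3815), which gave ratios of 2.55 and 2.26. At both ages the lower quartile of members lay above the upper quartile of 1-TRB barcodes, while the whole ranges overlapped: 15 (7.43%) and 26 (11.1%) members lay at or under the 1-TRB median. The median number of genes was 2328 and 2090 in members against 1168 and 1126, ratios of 1.99 and 1.86. With each barcode thinned to 1500 UMIs it was 772 and 752 against 731 and 704, so most of the difference in gene number went with the number of UMIs. The median mitochondrial share was 2.59% and 2.70% against 2.75% and 2.76%.

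RNA content was higher with each further chain. On the 1-TRB side of the rule's threshold, barcodes with 1 TRB and 1 TRA had medians of 2989 and 2927 UMIs. Barcodes with 1 TRB and 2 or more TRA, whose further chains were alpha chains only, had 4466 and 4164. Just inside the threshold, barcodes with exactly 2 TRB had 7253 and 5822, ratios to 1 TRB of 2.44 and 1.99, and those with 3 or more TRB had 11588.5 and 10053, ratios of 3.90 and 3.44. For scale, the summed UMIs of all pairs of 1-TRB barcodes had medians of 6633 and 6156. Members with 1 TRA still had medians of 6441 and 5297.

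**Figure D2:**
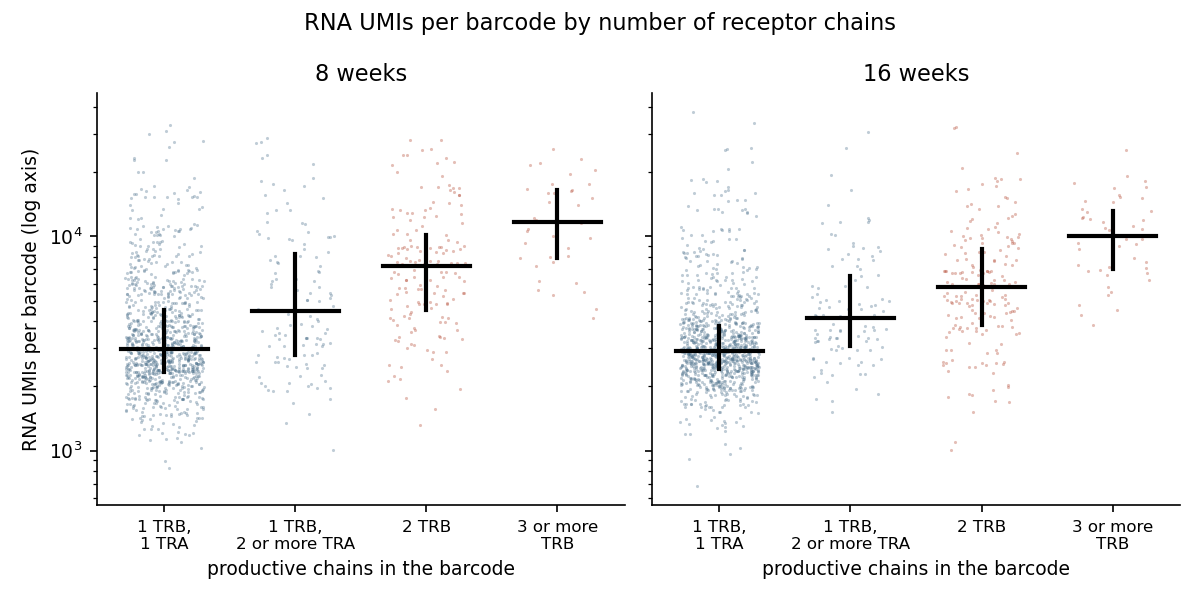
RNA UMIs of each barcode (vertical, log axis) by its productive chains, at 8 weeks (left) and 16 weeks (right); points are barcodes, horizontal bars medians and vertical bars quartiles. Medians run from 2989 and 2927 UMIs with 1 TRB and 1 TRA to 11588.5 and 10053 with 3 or more TRB, and the point clouds overlap.

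RNA content differed little with the evenness of the chains and more with the UMIs of the less abundant chain. Members with a ratio from 0.2 to under 0.4 had medians of 7535 and 6846 UMIs, those from 0.4 to under 0.7 had 7786 and 6034, and those from 0.7 to 1 had 7477 and 6767. Members whose less abundant TRB had 2 UMIs had 5447 and 4477, and those with 3 or more had 8358 and 7236. All of these medians lay above those of 1-TRB barcodes.

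The excess held within each coreceptor gate. Among barcodes with Cd4 and no Cd8a or Cd8b1 UMI, members had medians of 7682 and 6805 against 3305 and 3115, ratios of 2.32 and 2.18. Among those with Cd8a or Cd8b1 and no Cd4 it was 6633 and 5245 against 3404 and 3283, ratios of 1.95 and 1.60. Among barcodes with both, where 1-TRB barcodes were themselves deep, it was 11927 and 9521 against 7684 and 6496, ratios of 1.55 and 1.47.

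Read the other way, the share of members was low in shallow and high in deep barcodes. The barcodes of both groups were split by RNA UMIs into 4 classes of 25% each. From the shallowest to the deepest class the share was 2.02%, 2.53%, 11.7% and 34.9% at 8 weeks and 3.16%, 3.88%, 9.02% and 41.1% at 16 weeks. The deepest 25%, above 5572 and 4557.5 UMIs, held 138 of 202 and 169 of 235 members. In the deepest 10% 65 of 158 (41.1%) and 83 of 165 barcodes (50.3%) were members. The summed TRB UMIs, on which the rule itself bears, had medians of 16 and 14 in members against 7 and 6 in 1-TRB barcodes. What part depth has in the detection of a second chain was not tested.

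**Figure D3:**
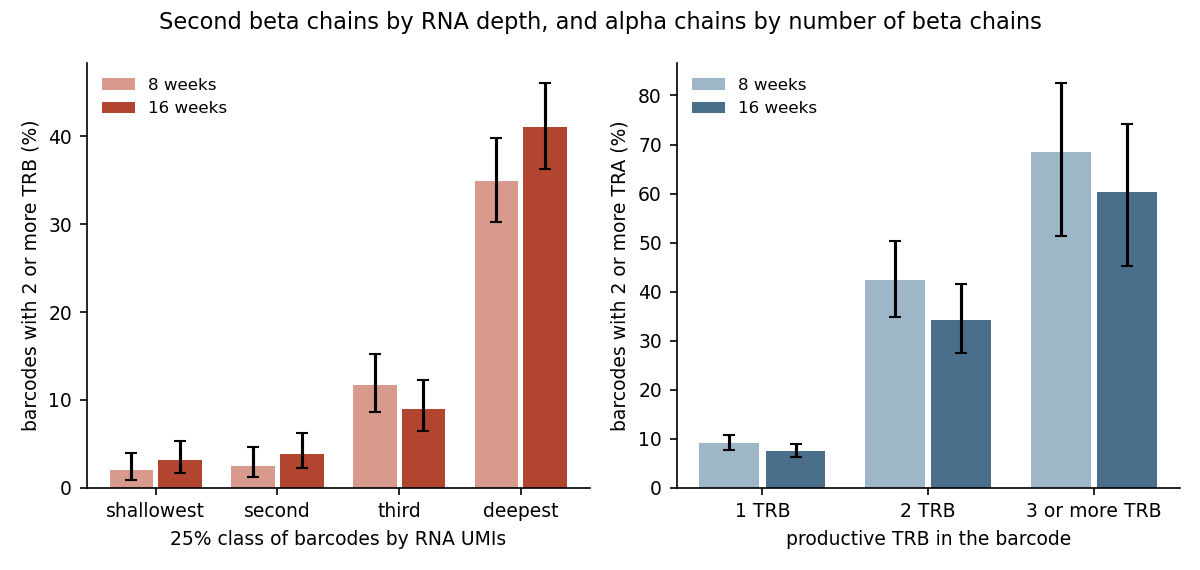
Left, percent of barcodes with 2 or more TRB in each 25% class of barcodes by RNA UMIs; right, percent of barcodes with 2 or more TRA by number of TRB; light bars are 8 weeks, dark bars 16 weeks, and error bars are 95% Clopper-Pearson intervals. The share of barcodes with 2 or more TRB is 34.9% and 41.1% in the deepest 25%, and the share with 2 or more TRA is highest, 68.4% and 60.4%, in barcodes with 3 or more TRB.

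Mature T cells mostly express either CD4, the coreceptor for class II MHC, or CD8, the coreceptor for class I MHC. UMIs of Cd4 together with Cd8a or Cd8b1 were found in 45 of 202 members at 8 weeks (22.3%, interval 16.7% to 28.6%) and in 59 of 235 at 16 weeks (25.1%, 19.7% to 31.2%). In 1-TRB barcodes they were found in 34 of 1379 (2.47%, 1.71% to 3.43%) and 31 of 1409 (2.20%, 1.5% to 3.11%). Detection of either gene moves with depth: a Cd4 UMI was present in 66.3% and 75.3% of members and in 45.9% and 40.7% of 1-TRB barcodes, while neither coreceptor was detected in 17.8% and 14.9% against 38.1% and 41.2%. With at least 2 UMIs on each side the shares were 8.42% (4.98% to 13.1%) and 11.5% (7.71% to 16.3%) in members, and 0.363% (0.118% to 0.844%) and 0.852% (0.441% to 1.48%) in 1-TRB barcodes.

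At equal depth the difference remained, on few barcodes. Thinned to 1500 UMIs, 7 of 201 (3.48%, interval 1.41% to 7.04%) and 12 of 233 members (5.15%, 2.69% to 8.82%) showed both coreceptors, against 4 of 1317 (0.304%, 0.0828% to 0.776%) and 6 of 1376 1-TRB barcodes (0.436%, 0.160% to 0.947%). This left out 1 and 2 members and 62 and 33 1-TRB barcodes of fewer UMIs. The thinned shares come from a single random draw. Over all possible draws at 1500 UMIs the expected shares at 8 weeks were 2.38% in members and 0.459% in 1-TRB barcodes, a smaller contrast. Thinned to 3000 UMIs, the shares were 6.95% (3.75% to 11.6%) and 11.7% (7.61% to 16.8%) against 1.48% (0.711% to 2.70%) and 2.16% (1.18% to 3.59%), with 15 and 29 members and 702 and 760 1-TRB barcodes left out. Within the deepest 25%, where medians were 9504 and 7940 UMIs in members and 8114 and 6702 in 1-TRB barcodes, 43 of 138 (31.2%, 23.6% to 39.6%) and 52 of 169 members (30.8%, 23.9% to 38.3%) showed both. There 20 of 257 (7.78%, 4.82% to 11.8%) and 24 of 242 1-TRB barcodes (9.92%, 6.46% to 14.4%) did. In the 2 shallowest classes 0 of 8 and 0 of 10 members did at 8 weeks, and 0 of 13 and 1 of 16 at 16 weeks.

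**Figure D4:**
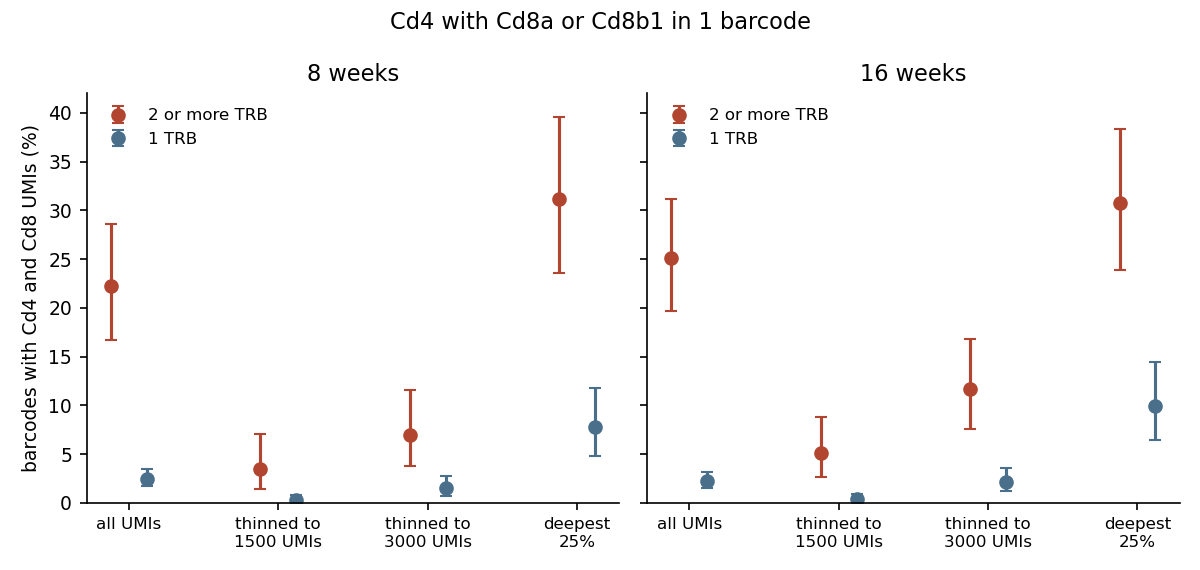
Percent of barcodes with UMIs of Cd4 and of Cd8a or Cd8b1 at 8 weeks (left) and 16 weeks (right), over all UMIs, after thinning each barcode to 1500 or 3000 UMIs, and over all UMIs in the deepest 25%; points are shares and bars 95% Clopper-Pearson intervals. Barcodes with 2 or more TRB lie above those with 1 TRB in all 4 settings, from 3.48% against 0.304% at 1500 UMIs to 31.2% against 7.78% in the deepest 25% at 8 weeks. Thinned shares are from a single random draw.

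Co-detection among the members was compared by chain number, first without thinning. It was 20.1% (33 of 164) and 20.9% (39 of 187) in barcodes with exactly 2 TRB, and 31.6% (12 of 38) and 41.7% (20 of 48) in those with 3 or more, which were also deeper. In the single random draw at each depth this order was not seen at 8 weeks. It gave 7 of 163 (4.29%, interval 1.74% to 8.65%) against 0 of 38 at 1500 UMIs, and 12 of 149 (8.05%, 4.23% to 13.6%) against 1 of 38 (2.63%, 0.0666% to 13.8%) at 3000 UMIs. At 16 weeks it gave 10 of 185 (5.41%, 2.62% to 9.72%) against 2 of 48 (4.17%, 0.509% to 14.3%) and 17 of 158 (10.8%, 6.39% to 16.7%) against 7 of 48 (14.6%, 6.07% to 27.8%), and all these intervals overlapped. Over all possible draws at 1500 UMIs the expected shares at 8 weeks were close, at 2.32% with exactly 2 TRB and 2.63% with 3 or more. The shares that follow are not thinned. Barcodes with 1 TRB and 2 or more TRA showed it in 7.09% and 8.41%. Members with 1 TRA showed it in 21.8% and 22.4%, and members with 2 or more TRA in 24% and 31.2%. Members whose less abundant TRB had 2 UMIs showed it in 13.5% and 14.8%, and those with 3 or more in 24.2% and 28.7%. For scale, 18.8% and 18.3% of all pairs of 1-TRB barcodes held both coreceptors between them. Alpha chains behaved alike within the deepest 25%: 58.0% and 49.7% of members there had 2 or more TRA, against 19.8% and 19.4% of 1-TRB barcodes.

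Foxp3 UMIs were found in 71 of 202 members at 8 weeks (35.1%, interval 28.6% to 42.2%) and in 65 of 235 at 16 weeks (27.7%, 22.0% to 33.9%). In 1-TRB barcodes they were found in 142 of 1379 (10.3%, 8.74% to 12%) and 116 of 1409 (8.23%, 6.85% to 9.79%). Among 1-TRB barcodes with Cd8a or Cd8b1 and no Cd4, which should mostly lack the gene, the share was 2.26% and 4.31% at median depths of 3404 and 3283 UMIs. Thinned to 1500 UMIs, it was 9.95% (6.18% to 14.9%) and 6.87% (3.98% to 10.9%) in members and 5.24% (4.10% to 6.58%) and 3.71% (2.77% to 4.84%) in 1-TRB barcodes, intervals that overlapped, against 0.913% and 1.57% in the Cd8-gated ones. As a level, Foxp3 had 90.3 and 98.0 CPM (its UMIs per 1000000 UMIs summed over a group of barcodes) in members against 48.2 and 45.3, log2 ratios of 0.91 (0.62 to 1.19) and 1.11 (0.83 to 1.40). From sums after thinning to 1500 UMIs the ratios were 0.50 and 0.63. Without barcodes that held 3 or more UMIs of other cell types they were 0.17 and 1.35. At 8 weeks both of these alternatives fell short of a 1.5-fold difference. The UMIs of other cell types counted here include those of Cst3, Cd74 and Pecam1, which T cells can also express. The limit of 3 was not scaled to depth.

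Foxp3 together with Cd8a or Cd8b1 was found in 14.9% (interval 10.2% to 20.5%) and 11.1% (7.36% to 15.8%) of members and in 1.23% (0.720% to 1.97%) and 1.14% (0.650% to 1.84%) of 1-TRB barcodes. Thinned to 1500 UMIs, it was in 6 of 201 (2.99%, 1.10% to 6.38%) and 5 of 233 members (2.15%, 0.70% to 4.94%) against 2 of 1317 (0.152%) and 2 of 1376 (0.145%). These shares rest on few barcodes. Ccl5, a chemokine of effector T cells, was detected at 1500 UMIs in 36.3% (29.7% to 43.4%) and 27.9% (22.2% to 34.1%) of members and in 12.8% (11.0% to 14.7%) and 11.0% (9.37% to 12.7%) of 1-TRB barcodes. It was detected in 32.5% and 24.9% of barcodes with exactly 2 TRB and in 52.6% and 39.6% of those with 3 or more. Ifng, the type 1 effector cytokine, was detected at that depth in 8.96% (5.39% to 13.8%) and 6.87% (3.98% to 10.9%) of members against 5.39% (4.23% to 6.75%) and 4.22% (3.22% to 5.42%). For Gzmb, a granzyme of cytotoxic cells, it was 5.47% (2.76% to 9.58%) and 2.58% (0.951% to 5.52%) against 1.75% (1.11% to 2.61%) and 0.872% (0.451% to 1.52%). The Ifng intervals overlapped at both ages and the Gzmb intervals at 16 weeks. As a level over all barcodes the granzyme gene Gzmk had log2 ratios of 0.64 and 0.12, members over 1-TRB barcodes. Of 18 effector and cytotoxic genes tested as levels, 15 were above 0 and 3 below at each age. Over all 5887 genes tested, 3338 were above 0 at 8 weeks and 3443 at 16 weeks.

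Gene levels were compared by summing UMIs over each group of barcodes, over 5887 genes with 100 or more UMIs at each age. A gene was called higher or lower where its CPM differed 1.5-fold or more. At both ages 82 genes (1.39%) were higher in members and 15 (0.255%) lower. At 8 weeks 166 (2.82%) were higher and 84 (1.43%) lower, and at 16 weeks 276 (4.69%) higher and 87 (1.48%) lower. The median log2 ratio over all tested genes was 0.04 and 0.05. Because the intervals treat molecules as independent, they are narrow for genes concentrated in a few barcodes.

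The 10 genes highest in members, ranked by the lesser of their log2 ratios at the 2 ages, were led by Serpina3f, a protease inhibitor induced on activation. It stood at 31.7 against 10.9 CPM at 8 weeks and 28.5 against 10.9 at 16 weeks, log2 ratios of 1.54 (interval 1.01 to 2.08) and 1.38 (0.81 to 1.94). The chemokine Ccl3 had log2 ratios of 1.34 and 2.15, and Prdm1, which encodes the transcription factor Blimp-1 of effector T cells, 1.31 and 1.16. The chemokine Ccl4 had 1.15 and 2.77, but 1 barcode gave 31.9% of its member UMIs at 16 weeks. Without barcodes that held 3 or more UMIs of other cell types, the 16-week ratios were -1.29 for Ccl3 and 0.45 for Ccl4 on the log2 scale. That setting left 113 of 235 members and 1142 of 1409 1-TRB barcodes, by a limit that was not scaled to depth. The UMIs it counts include those of Cst3, Cd74 and Pecam1, which T cells can also express. Cst3 alone was found in 172 members and 658 1-TRB barcodes at 16 weeks. The regulatory cytokine Il10 had 1.82 and 1.14, from 57 and 44 UMIs in members, and Areg, an epidermal growth factor ligand made by some regulatory T cells, 1.03 and 1.57. Arl5a, Tmem176a, Serpina3g and Rfxap completed the highest 10, with ratios of 0.97 to 1.72.

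The 10 genes lowest in members were led by Igfbp4. It encodes an insulin-like growth factor binding protein expressed in naive T cells, and had 168 against 329 CPM at 8 weeks and 196 against 362 at 16 weeks, log2 ratios of -0.97 (interval -1.15 to -0.80) and -0.89 (-1.05 to -0.72). Dapl1 had -0.87 and -1.03, and Nsg2 -0.81 and -0.85. Slc17a9, Pdlim4, Rars2, Foxj3, Gm20400 and Rcbtb1 were also among them, with ratios of -0.92 to -0.64. Among the deepest 25% of barcodes Igfbp4 stood the other way, at 110 against 45.9 CPM and 178 against 76.0, log2 ratios of 1.26 (0.92 to 1.61) and 1.23 (0.94 to 1.52).

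That reversal held for the naive T cell genes as a list, so the gene lists are given over all barcodes and within the deepest 25%, a comparison added after the data had been seen. Values given for lists and their genes from here on are log2 ratios, members over 1-TRB barcodes, of levels in CPM. The deepest 25% set 138 against 257 barcodes at 8 weeks and 169 against 242 at 16 weeks, over 3992 genes. There 207 genes (5.19%) were higher and 115 (2.88%) lower in members at 8 weeks, and 166 (4.16%) higher and 207 (5.19%) lower at 16 weeks. The median over all genes was 0.01 and -0.01, with 2039 and 1949 of the 3992 above 0.

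Regulatory T cell genes had medians above 0 in both views, with fewer genes called in the deepest 25%. Over all barcodes, of 11 tested genes, 8 and 9 were called higher at 8 and 16 weeks and none lower, with medians of 0.70 and 0.71. Ctla4, the inhibitory receptor that regulatory T cells express constitutively, had 0.91 and 0.93, the costimulatory receptor Tnfrsf4 0.70 and 1.07, Ikzf2, which encodes the transcription factor Helios, 0.57 and 0.62, and Tnfrsf18, the receptor GITR, 0.39 and 0.35. In the deepest 25%, 3 and 2 of 10 tested genes were called higher and none lower, with medians of 0.44 and 0.38. All 10 were above 0 at 8 weeks, and 2 of 10 were below 0 at 16 weeks, Tnfrsf9, the costimulatory receptor 4-1BB, at -0.32 (interval -0.62 to -0.02) and Il2ra, the interleukin 2 receptor alpha chain, at -0.09 (-0.61 to 0.42), both named after their values were seen. Foxp3 had 1.06 (interval 0.70 to 1.43) and 0.83 (0.49 to 1.18) there and Ctla4 0.78 and 0.63, while Tnfrsf4 had 0.32 and 0.40 and Ikzf2 0.39 and 0.22.

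Effector and cytotoxic genes were higher over all barcodes, with 10 and 9 of 18 called higher, none lower and medians of 0.61 and 0.59. Nkg7, a cytotoxic granule protein, had 0.64 and 0.58, and the cathepsin Ctsw 0.50 and 0.27. Ccl5 differed between the ages, at 3171 against 1212 CPM at 8 weeks (1.39) and 1835 against 1680 at 16 weeks (0.13). Of 17 genes tested in the deepest 25%, 8 were called higher at 8 weeks and 3 at 16 weeks, with 1 lower at each age and medians of 0.57 and 0.20. Ccl5 had 1.89 and -0.01 there and Nkg7 0.47 and 0.20. Genes of the effector-memory list, among them S100a10, Lgals1, Crip1 and Vim, had all 11 ratios above 0 at both ages and medians of 0.45 and 0.42, with 4 and 3 called higher. In the deepest 25%, 9 and 7 of 11 were above 0, with medians of 0.20 and 0.16, and Lgals1, a galectin, was below 0 at -0.25 and -0.50.

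Naive T cell genes were lower in members over all barcodes and higher within the deepest 25%. Over all barcodes each of 11 tested genes was below 0 at both ages, 4 and 5 were called lower and none higher, and the medians were -0.48 and -0.45. Lef1, a transcription factor of naive and stem-like T cells, had -0.60 and -0.69, the lymph node homing receptor Ccr7 -0.48 and -0.59, and Klf2, a regulator of T cell trafficking, -0.17 and -0.35. Among 10 genes tested in the deepest 25%, 9 and 10 were above 0, 4 were called higher at each age and none lower, and the medians were 0.50 and 0.37. Lef1 had 0.81 and 0.31 there, Klf2 0.53 and 0.82, and Ccr7 0.24 and 0.06.

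Proliferation genes also differed between the views. Over all barcodes none of 15 genes was called at 8 weeks and 1 was called higher and 1 lower at 16 weeks, with medians of 0.12 and -0.31. The sign over all barcodes turned with the averaging, with a median of 0.36 at 16 weeks from the mean of per-barcode CPM and of 0.26 from thinned sums. In the deepest 25% all 15 were below 0 at both ages, 12 and 14 were called lower, and the medians were -0.70 and -1.47. The tubulin-binding protein gene Stmn1 had 398 against 608 CPM and 183 against 522, log2 ratios of -0.61 (interval -0.75 to -0.48) and -1.51 (-1.71 to -1.33). The chromatin protein gene Hmgb2 had -0.69 and -1.15, the histone gene Hist1h2ap -0.81 and -1.02, and the tubulin gene Tubb5 -0.44 and -0.65. Deep barcodes with 1 TRB thus held more RNA of these genes than deep barcodes with 2 or more.

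Immediate early and stress genes had medians of 0.19 and 0.23 over all barcodes, with 2 and 0 of 12 called higher, none lower, and 4 and 3 below 0. The heat shock gene Hspa1b was among those below, at -0.27 (interval -0.36 to -0.18) and -0.26 (-0.34 to -0.19), and Jun had -0.10 and -0.20. Among the deepest barcodes all 12 were above 0, 6 and 9 were called higher and the medians were 0.59 and 0.66. There the AP-1 subunit genes Junb, Fos and Jun had 0.73 and 0.89, 0.85 and 0.62, and 0.60 and 0.68. Inhibitory receptor genes had medians of 0.40 and 0.64 over all barcodes, with 1 and 4 of 6 called higher, and of -0.13 and 0.33 over 5 genes in the deepest 25%, with 0 and 1 called higher. Lag3 was above 0 in both views, at 0.53 and 0.72 over all barcodes and 0.51 and 0.60 in the deepest 25%, and Pdcd1, which encodes PD-1, had 0.26 and 0.52 against -0.13 and 0.00. Genes of the receptor complex had medians of 0.06 at both ages, and of -0.01 and 0.14 in the deepest 25%.

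**Figure D5:**
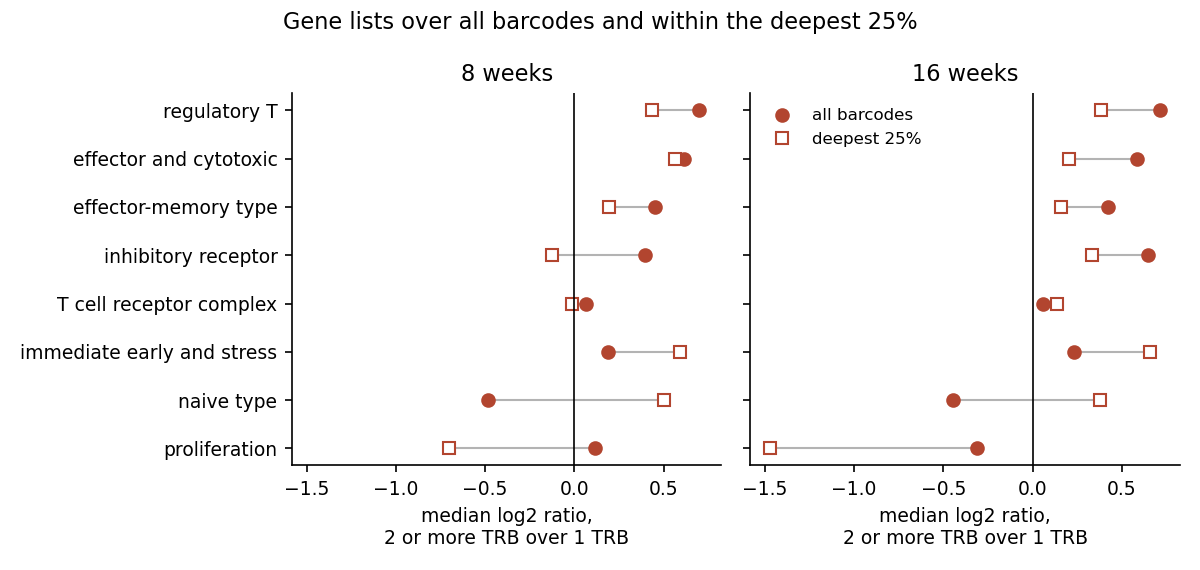
Median log2 ratio of each gene list, barcodes with 2 or more TRB over barcodes with 1 TRB, at 8 weeks (left) and 16 weeks (right), over all barcodes (filled circles) and within the deepest 25% (open squares), joined by a line for each list. The naive list lies at -0.48 and -0.45 over all barcodes and at 0.50 and 0.37 in the deepest 25%, while the regulatory T median lies above 0 in both.

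The coreceptor genes themselves were near parity as levels at 8 weeks. Cd4 had 184 against 206 CPM (log2 ratio -0.16), Cd8a -0.04 and Cd8b1 -0.05. At 16 weeks Cd4 was at 247 against 176 CPM (0.50), Cd8a at -0.29 and Cd8b1 at -0.68, while Runx3, which encodes a transcription factor of CD8 and effector T cells, had 0.51 and 0.63 at the 2 ages. Of the genes of receptor rearrangement, Rag1, Rag2 and Ptcra had no UMI in either group, and Dntt had 1 and 1 UMI in members and 2 and 1 in 1-TRB barcodes.

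RNA of other cell types was present in both groups. The 12 acinar genes summed to 124 CPM in members and 121 in 1-TRB barcodes at 8 weeks and to 147 and 273 at 16 weeks, the 11 myeloid genes to 282 and 242 and to 269 and 206, and the 8 B cell genes to 239 and 207 and to 56.9 and 42.4. Cd74, the MHC class II invariant chain, gave most of the B cell sum at 8 weeks, where 1 barcode held 80.6% of its member UMIs, while Cd79a had 1 and 0 UMIs in members. The 9 islet endocrine genes summed to 12.4 and 7.60 CPM and to 27.4 and 10.2. At 16 weeks 1 barcode held 84.6% of the 26 member UMIs of Ins2, and 2 of 235 members held 3 or more UMIs of that list. Genes of NK, NKT and gamma-delta T cells summed to 68.8 against 20.04 CPM at 8 weeks and to 17.0 against 9.81 at 16 weeks. At least 3 UMIs of them were found in 13 of 202 members (6.44%) against 9 of 1379 (0.653%) at 8 weeks. At 16 weeks it was 3 of 235 (1.28%) against 8 of 1409 (0.568%), neither at equal depth. Fcer1g, an Fc receptor signalling chain of innate lymphocytes, had 44.6 against 13.6 CPM at 8 weeks. Ncr1, the NK receptor NKp46, had 32 UMIs in 8 members at 8 weeks, and 5 UMIs against 10 at 16 weeks. On few UMIs, Klrb1c and Sox13 had log2 ratios of -0.87 and -0.48 at 8 weeks, while the other genes of the list were above 0. The 8 dendritic cell genes summed to 14.0 against 8.12 and 15.9 against 13.8, and the 8 endothelial and stromal genes to 23.1 against 35.9 and 40.5 against 44.9. The 5 erythroid genes had no UMI in members. Barcodes with 3 or more UMIs of these other cell types were then left out, with NK, NKT and gamma-delta T genes not counted. This left 84 of 202 and 113 of 235 members, 1114 of 1379 and 1142 of 1409 1-TRB barcodes, and a Foxp3 log2 ratio of 0.17 at 8 weeks. The limit of 3 was not scaled to depth, and members were deeper, so this setting can also select on depth. With Cst3, Cd74 and Pecam1, which T cells can also express, not counted among the UMIs of other cell types, 162 and 192 members were left and Foxp3 had 0.76 and 1.06. What part RNA of other cells has in the gene results was not tested beyond these values.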

How the data were processed

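Per the labels' protocols, islet cells sorted for the receptor beta chain were processed with 5' droplet reagents. What the authors deposited is raw UMI counts, whole and not normalized, and filtered receptor contigs with V and J gene, CDR3 and UMI and read counts. Per the file headers the matrix software version is 3.0.1. The submitters' processing notes name mm10 and Seurat without a role, and the assembler of the contigs is not given in the sources used here.

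Productive TRB and TRA were counted per barcode and joined by barcode to the RNA counts of the same age. RNA barcodes needed 500 genes and at most 10% mitochondrial UMIs: 136 and 151 fell short in genes, and 103 and 69 exceeded the mitochondrial limit. No doublet caller was run and no doublet was removed. Thinning drew UMIs at random without replacement, in a single draw for each depth. Gene levels were sums over barcodes as CPM, and log2 ratios added 0.5 UMIs, with exact intervals conditional on the gene's total. Shares have Clopper-Pearson intervals, and a share of 0 has a limit of 3 counts of the total. Lists held 186 genes in 18 groups, 178 of them in the matrix. The text names Cd4, Cd8a, Cd8b1 and Foxp3, up to 4 members of a list with the most UMIs, and the 10 genes highest and lowest at both ages, of which 1 is not reported here. A few genes outside this rule are named too, among them Ifng, Gzmb, Gzmk, Tnfrsf9 and Il2ra. Members and lists were chosen with earlier results of these data known. Python 3.11.15, numpy 2.4.6, pandas 2.3.3, scipy 1.17.1 and matplotlib 3.10.9 were used, and the counting was tested on simulated data.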

Additional observations from a re-analysis of the deposited data

Results flagged for a closer look

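Stmn1, the gene of the tubulin-binding protein stathmin, stood on opposite sides of 0 at the 2 ages over all barcodes. Its log2 ratio of barcodes with 2 or more TRB over those with 1 TRB was 0.26 at 8 weeks and -0.42 at 16 weeks. The difference between the ages was not tested, since each age has 1 library. Within the deepest 25% of barcodes its ratio was below 0 at both ages, at -0.61 and -1.51.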

How the results depend on the processing

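No paired analysis was possible because each age has 1 library of each kind. Of the alternative values of the main results 97 stayed within counting error or within 1.5 times the main count, 37 did not and none changed sign; where no cause follows from the setting, it was not tested. With 3 or more UMIs required per TRB, the share at 16 weeks was 12.2%, the ratio of RNA UMIs there 2.41, and the median chain ratio 0.545 and 0.563 at 8 and 16 weeks. With that minimum for TRA too, 35.8% and 29.3% of members had 2 or more TRA. Barcodes of 1000 or more genes gave ratios of 2.13 for UMIs and 1.75 for genes at 8 weeks. Exactly 2 TRB gave 1.99 and 1.68 at 16 weeks. The gate on Cd8 without Cd4, added after seeing the data, gave UMI ratios of 1.95 and 1.60.

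Co-detection at 1500 UMIs depended on the setting in both groups. With 2 UMIs on each side it was 0.498% and 0.429% in members and 0 in 1-TRB barcodes at both ages. Thinned to 3000 UMIs it was 11.7% in members at 16 weeks and 1.48% and 2.16% in 1-TRB barcodes, and without thinning, an alternative added later, 22.3% and 25.1% against 2.47% and 2.20%.

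Of 5887 tested genes, 82 were higher and 15 lower at both ages. These counts were 53 and 5 of 5515 tested genes with 1000 genes per barcode. They were 187 and 69 of 5887 from thinned sums, and 183 and 52 of 8701 with 30 UMIs per gene. With 1-TRB barcodes of 1 TRA only, 8 of 5254 were lower. The deepest 25% of barcodes, added after seeing the data, had 3992 tested genes. There 62 were lower, of which 1 was among the 15, and 64 were higher, of which 17 were among the 82. Without barcodes of other cells' RNA 15 of 4136 were higher, 4 of them among the 82. With Cst3, Cd74 and Pecam1 not counted, also added later, 47 of 5351 were higher and 6 lower, 36 and 6 of them shared. A gene under the UMI minimum in a setting was not tested there and could not be shared. The Foxp3 log2 ratio was 0.50 and 0.63 from thinned sums and 0.17 at 8 weeks without barcodes of other cells' RNA. Depth limits co-detection, which at 1500 UMIs rests on 7 and 12 members.

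Signs were followed for list medians that left the interval of the main median, and for ratios past 1.5-fold of the reported naive genes and of those highest and lowest. Of these 18 changed sign, as log2 ratios. Smaller ratios that also changed sign in the deepest 25%, such as those of Klf2, Lgals1, Ccr7 and Pdcd1 at 8 weeks, are not in that count. In the deepest 25% of barcodes Igfbp4 had 1.26 and 1.23 at 8 and 16 weeks, Lef1 0.81 and 0.31, and at 16 weeks Ccr7 0.061 and Gm20400 0.053. The list medians there were 0.50 and 0.37 for naive genes, -0.13 for inhibitory receptors and -0.70 for proliferation at 8 weeks, and 0.21 for acinar genes at 16 weeks. The proliferation median was -0.078 with 1000 genes per barcode and -1.16 without barcodes of other cells' RNA at 8 weeks, and 0.36 from mean CPM and 0.26 from thinned sums at 16 weeks. Pdlim4 at 8 weeks had 0.13 from thinned sums and 0.24 without barcodes of other cells' RNA, and Ccl3 at 16 weeks had -1.29 there.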
